A study of Homo sapiens with 10 samples.

Results

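The snoRNA host transcripts SNHG1, SNHG5, SNHG6, SNHG7, SNHG8, SNHG12, SNHG15, SNHG16, GAS5 and ZFAS1 were followed in K562 cells treated with transcription inhibitors. These 10 genes were chosen by name, as noncoding genes whose introns encode small nucleolar RNAs. The choice was made with earlier results of these data known, so the set is not independent of them. All 10 were found among the 59204 human genes of the tables. K562 is an established chronic myeloid leukemia line. The groups were actinomycin D at 1 µg/mL, which blocks RNA polymerases on DNA, AZ-5576 at 1 µM, an inhibitor of the kinase CDK9 that releases paused RNA polymerase II, JQ1 at 1 µM, which displaces BET bromodomain proteins from chromatin, A-485 at 1 µM, which inhibits the acetyltransferases CBP and p300, and the vehicle DMSO. Every group was treated for 2 hours, received 100 µM 4-thiouridine in the final 1 hour, and held 2 libraries. SLAM-seq alkylates the thiouridine in new RNA, which then reads as C instead of T. A read with such conversions (a labelled read) is therefore taken to come from a transcript of the last hour. The total of reads measures the polyadenylated RNA present.

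A snoRNA host gene is transcribed by RNA polymerase II into a precursor whose introns carry snoRNAs, the guides for methylation and pseudouridylation of ribosomal RNA. After splicing the introns are trimmed to snoRNAs, and the joined exons form a short-lived or stable transcript that in most of these genes has no long open reading frame. GAS5 was named for its accumulation in growth-arrested cells. GAS5 and other hosts are known to begin with a 5′-terminal oligopyrimidine tract, the feature that ties ribosomal protein mRNAs to growth control, and their spliced forms are known targets of nonsense-mediated decay, the pathway that removes transcripts with early stop codons.

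Values below are read counts per 100000 Drosophila spike-in counts of the same library unless raw counts are named. A library held between 14916671 and 17918971 human reads and between 1817677 and 2212752 spike-in reads, and the labelled part lay between 1410 (actinomycin D) and 448401 reads (DMSO). The K562 markers were all detected, with 97443 to 123033 summed counts per library over 9 genes. Lymphoid, myeloid and non-blood markers summed to 131 to 194, 285 to 352 and 1118 to 1365 counts, and 1 gene of each of these lists had no count in any library. Of these markers 2 of 4 lymphoid, 3 of 4 myeloid and 4 of 5 non-blood genes reached 10 counts in a library. Because spike-in RNA went into the purified RNA, a value is relative to an amount of RNA, and fewer cells and less RNA per cell cannot be told apart. The labels do not say that the libraries of a group came from separate cultures, so p-values measure the spread between these libraries, which may be technical. Tests used edgeR's quasi-likelihood method over all genes with Benjamini-Hochberg adjustment, and a gene is called at an adjusted p under 0.05. All 10 host genes passed the count filter in labelled and in total RNA.

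In DMSO every host had a labelled share above the median gene, and the hosts spanned a wide range. The labelled share, the labelled reads of a gene as a percent of all its reads, averaged 33.9% ± 2.84 for SNHG12 (SD, n = 2), 26.5% ± 1.24 for SNHG1, 25.5% ± 1.32 for SNHG7 and 23.1% ± 0.799 for SNHG15. GAS5 followed at 11.1% ± 0.603, SNHG8 at 9.90% ± 1.99 and ZFAS1 at 9.61% ± 1.72, and these 3 neighbours lay within their spread of each other. SNHG16 at 4.79% ± 1.49, SNHG5 at 4.51% ± 0.0401 and SNHG6 at 4.16% ± 0.664 had the least label and also lay within their spread. In the second DMSO library SNHG6 was at 3.69% and SNHG16 at 3.73%, so these 2 hosts are not set apart from the median gene. Of the 10409 genes with at least 100 total counts over the DMSO libraries, 98.9% had a lower share than SNHG12, 97.8% than SNHG1, 97.6% than SNHG7, 96.8% than SNHG15, 86.2% than GAS5, 83.4% than SNHG8 and 82.6% than ZFAS1, whereas 54.2% had a lower share than SNHG6. The share rises with the number of T bases that can convert. T made up from 23.6% (SNHG7) to 33.2% (SNHG6) of the last 250 bases, taken as the median over a gene's annotated transcripts. The median over 8795 genes was 26.8%. Which of the annotated ends were read is not known here, and the part of T content in the shares was not tested.

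Total RNA in DMSO gave another order. GAS5 had the most 3′ reads, at 458 and 547, followed by SNHG6 at 435 and 521, SNHG16 at 361 and 442, SNHG5 at 355 and 402, SNHG1 at 264 and 315 and ZFAS1 at 242 and 265. SNHG8 had 151 and 167, SNHG12 89.8 and 98.9, SNHG7 79.7 and 79.8, and SNHG15 19.9 and 25.9. From GAS5 to SNHG5 each gene overlapped its neighbour in the order, as did SNHG1 and ZFAS1, and the libraries of the last 4 did not overlap. The 3 least abundant hosts were thus among the 4 with the highest labelled share. The kit reads 1 tag near each poly(A) end, so counts are not divided by gene length, and capture may still differ between genes.

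The promoter windows of 8 hosts are printed because short motifs near the start recur among them. RefSeq's promoter table (GRCh38.p14) held no entry for the other 2. Each window runs from 40 bases upstream of the RefSeq start to 20 bases into the gene, 5′ to 3′ on the gene's strand, and capitals mark TATAA within 40 to 15 bases upstream or CTTT, a C followed by pyrimidines, within 10 bases upstream to 20 downstream.
SNHG12 (chr1:28581854-28581913, minus strand): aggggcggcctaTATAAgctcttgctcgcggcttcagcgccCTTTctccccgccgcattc
SNHG7 (chr9:136728165-136728224, minus strand): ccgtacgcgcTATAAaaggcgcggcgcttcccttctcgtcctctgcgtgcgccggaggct
SNHG1 (chr11:62855866-62855925, minus strand): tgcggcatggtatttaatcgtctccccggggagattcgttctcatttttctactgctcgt
GAS5 (chr1:173869026-173869085, minus strand): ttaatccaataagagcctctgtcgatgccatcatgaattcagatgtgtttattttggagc
ZFAS1 (chr20:49278602-49278661, plus strand): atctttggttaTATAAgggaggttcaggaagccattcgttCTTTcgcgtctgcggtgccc
SNHG8 (chr4:118278722-118278781, plus strand): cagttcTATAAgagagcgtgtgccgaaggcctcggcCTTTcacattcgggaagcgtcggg
SNHG5 (chr6:85678714-85678773, minus strand): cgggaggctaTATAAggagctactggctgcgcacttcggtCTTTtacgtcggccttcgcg
SNHG16 (chr17:76557724-76557783, plus strand): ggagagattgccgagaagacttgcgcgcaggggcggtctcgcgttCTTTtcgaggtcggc
TATAA stood on the gene's strand in 5 of 8 windows, SNHG5, SNHG7, SNHG8, SNHG12 and ZFAS1, against 3.94% of 35116 promoters in the table. CTTT stood on the gene's strand in 5 of 8 windows, SNHG5, SNHG8, SNHG12, SNHG16 and ZFAS1, against 12.5% of promoters. On the other strand TATAA was found in 1 of 8 windows and 1.75% of promoters, and CTTT in 0 of 8 windows and 9.64% of promoters. The motifs do not overlap, and they were chosen after the sequences were seen. The RefSeq start of GAS5, at 173869045 of chromosome 1, lies upstream of the GENCODE release 29 start at 173868882, whereas the RefSeq starts of SNHG12 (28581873, against 28583132 in GENCODE) and ZFAS1 (49278642, against 49278178) lie inside the GENCODE genes. The RefSeq start of SNHG8 (118278762, against 118278709) also lies inside its GENCODE gene. The windows of GAS5, SNHG12, ZFAS1 and SNHG8 thus do not hold the outer GENCODE start. The RefSeq starts of SNHG1 (62855885, against 62855914) and SNHG5 (85678733, against 85678748) lie inside too, but their windows hold the GENCODE start. A match is a description of the letters and not a mapped site.

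Actinomycin D left almost no new RNA of the hosts. Their labelled counts together were 0.987 ± 0.553, against 285 ± 2.24 with DMSO (SD, n = 2 each), which is 0.346% of the DMSO level. SNHG1 had 1 and 0 labelled reads with actinomycin D, against 1369 and 1468 with DMSO, and GAS5 had 1 and 2, against 999 and 1061. The ratio was 0.0312% of DMSO for SNHG1 (exact 95% interval 0.00079 to 0.174%) and 0.129% for GAS5 (0.0266 to 0.378%), intervals that cover counting error only. SNHG8 and SNHG15 had no labelled read with actinomycin D and were at least 218-fold and at least 73.7-fold lower, taking a limit of 3 counts over the group. All 10 hosts were called lower, as were 99.2% of the 7996 genes tested, so the count says nothing particular of the hosts.

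SNHG6 had the most labelled reads of the hosts under actinomycin D. Whether these reads came from new RNA or from bases misread as conversions was not tested. It had 8 and 25 labelled reads with actinomycin D, against 381 and 349 with DMSO, while no other host had more than 2 reads in a library. Its group ratio was 4.01% of DMSO (exact 95% interval 2.74 to 5.68%), and 97.8% of genes tested had a lower log2 fold change. The SNHG6 value rests mostly on the second actinomycin D library: the log2 fold change was −4.64 (SE 0.27) with both and −5.61 without it. Its direction was lower relative to the spike-in and turned to 0.75 on the log2 scale under TMM scaling, which centres each library on its own genes.

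The pool of host RNA after 2 hours of actinomycin D parted along the labelled share, with SNHG1 as the exception. In total RNA 4 hosts were called lower and 0 higher, where 19.7% of the 14572 genes tested were called lower and 0.336% higher, and the median log2 fold change was −0.23 over the hosts and −0.27 over all genes. SNHG12, which carries SNORA44, SNORA61, SNORA16A and SNORD99 in its introns, had 27.1 and 31.2 with actinomycin D, against 89.8 and 98.9 with DMSO. It fell by 1.69 on the log2 scale (SE 0.11, adjusted p 7.53e-15). SNHG7, the host of the SNORA17 genes, had 31.5 and 35.9, against 79.7 and 79.8 with DMSO, and fell by 1.24 (SE 0.13, adjusted p 4.47e-09). SNHG15, the host of SNORA9, had 11.0 and 10.1, against 19.9 and 25.9 with DMSO, and fell by 1.12 (SE 0.17, adjusted p 3.12e-06). The libraries of these 3 genes did not overlap, and their calls held under every alternative run. ZFAS1, the host of the SNORD12 family, had 202 and 210, against 242 and 265 with DMSO, a log2 fold change of −0.30 (SE 0.10, adjusted p 0.0245) that lost its call under TMM scaling (−0.05), under spike-in median ratio scaling (adjusted p 0.0575), with only the 2 groups fitted (adjusted p 0.0720) and without any of 3 of the 4 libraries compared, namely either actinomycin D library or the second DMSO library.

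SNHG1 stood apart from the other hosts with much new RNA. It is the host of SNORD22, SNORD25 to SNORD28 and SNORD30, and it lost its label under actinomycin D, yet its total RNA was 268 and 344 with the drug, against 264 and 315 with DMSO. The groups overlapped, and the log2 fold change was 0.08 (SE 0.11, adjusted p 0.654), or 0.34 with a call under TMM scaling (adjusted p 0.00798). Among the 302 genes with a DMSO share from 20 to 30% the median change of total RNA with actinomycin D was −1.07, with 10th and 90th percentiles of −1.79 and −0.50, and only 2 of the 302 had a higher value than SNHG1. SNHG7 and SNHG15 sat inside that range, with 186 and 161 genes above them. GAS5 (−0.28, adjusted p 0.0928), SNHG8 (−0.18), SNHG16 (−0.14), SNHG5 (−0.11) and SNHG6 (−0.08) did not pass the test. GAS5 passed it without the count filter (adjusted p 0.0437) and without the first DMSO library (adjusted p 0.0453).

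**Figure D1:**
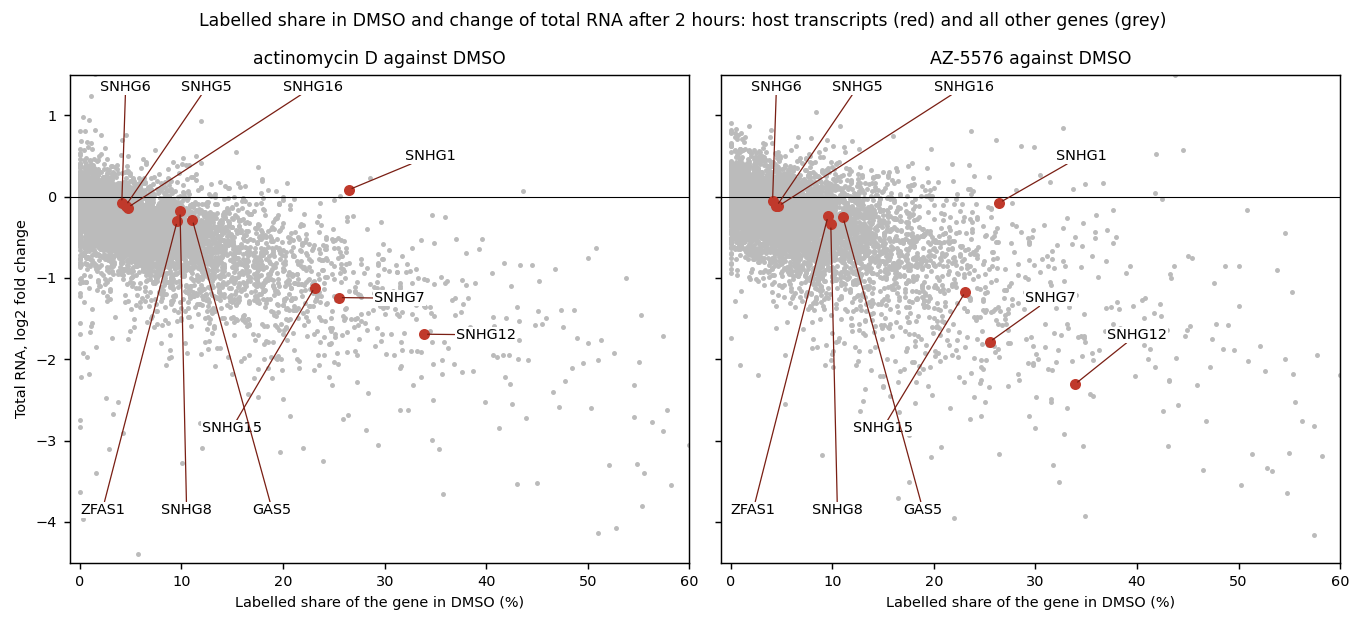
The x axis gives the labelled share of each gene in DMSO in percent, and the y axis the log2 fold change of its total RNA after 2 hours of actinomycin D (left) or AZ-5576 (right) against DMSO. Red points are the 10 hosts and grey points the other genes of 10409, of which 24 lie outside the axes. SNHG12, SNHG7 and SNHG15 lie low at shares above 20%, and SNHG1 lies near 0 at a share of 26.5%.

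**Figure D2:**
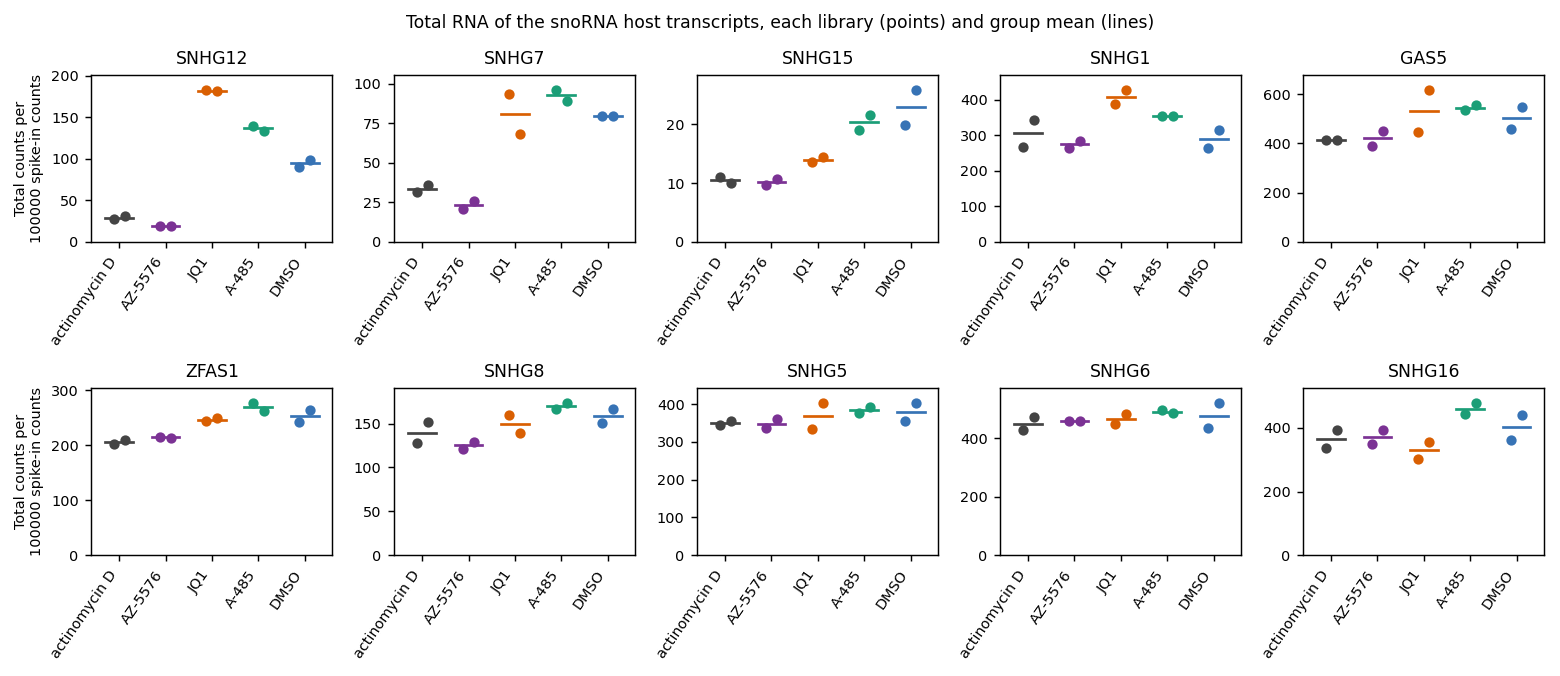
Total read counts per 100000 spike-in counts (y axis, from 0) of the 10 hosts in each library (points) with group means (lines), for actinomycin D, AZ-5576, JQ1, A-485 and DMSO from left to right. SNHG12 runs from 18.9 with AZ-5576 to 183 with JQ1, whereas SNHG6 overlaps DMSO with each of the 4 drugs.

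With AZ-5576 the hosts kept a little new RNA, and unequally. Their summed labelled counts were 19.6 ± 1.62, against 285 ± 2.24 with DMSO (SD, n = 2 each), or 6.89% of the DMSO level. All 10 were called lower relative to the spike-in, as were 94.7% of genes tested (0.200% were called higher), with a median log2 fold change of −4.47 over the hosts and −5.94 over all genes. The median was −4.06 over protein-coding snoRNA hosts and −4.57 over other noncoding ones. Under TMM scaling, which moved the median of all genes by 2.89, 5 hosts stayed called lower, SNHG1 was called higher at 0.79 and SNHG6 stood at 0.12. These 2 signs are relative to the other genes of the same library and do not show more new RNA of SNHG1 or SNHG6. All labelled reads of a library numbered 53503 and 62513 with AZ-5576, against 448401 and 434411 with DMSO. The spike-in reads were 1828021 and 2059736 with AZ-5576, against 1895506 and 1817677 with DMSO.

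SNHG1 had 207 and 224 labelled reads with AZ-5576, against 1369 and 1468 with DMSO, which left 14.5% of its label (exact 95% interval 13.1 to 16.1%). SNHG6, the host of SNORD87, had 41 and 28, against 381 and 349 with DMSO, which left 9.03% (6.95 to 11.6%). At the other end SNHG12 had 10 and 6, against 612 and 574 with DMSO, which left 1.29% (0.734 to 2.10%). SNHG5, the host of SNORD50 RNAs, had 5 and 5, against 305 and 327, which left 1.51% (0.721 to 2.80%). The interval of SNHG1 did not overlap that of any other host, while those of SNHG12, SNHG5, SNHG16 (1.45 to 3.91%) and SNHG15 (1.35 to 7.16%) overlapped each other. These intervals cover counting error only and not the spread between libraries. By the edgeR fit the log2 fold change was −2.78 (SE 0.16) for SNHG1 and −3.46 (SE 0.24) for SNHG6. SNHG7 differed between its AZ-5576 libraries, with 7 and 35 reads, and its log2 fold change of −4.24 became −5.71 without the second. SNHG8 had 8 and 29 reads and ZFAS1 14 and 39, so that their remaining label is also uneven between libraries.

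Total RNA of the hosts with AZ-5576 repeated the split. In all, 4 hosts were called lower and 0 higher, against 12.9% and 0.782% of genes tested, with a median of −0.25 over the hosts and −0.15 over all genes. SNHG12 had 19.1 and 18.9, against 89.8 and 98.9 with DMSO, and fell by 2.31 on the log2 scale (SE 0.12, adjusted p 5.21e-18). SNHG7 had 20.5 and 25.6, against 79.7 and 79.8, and fell by 1.79 (SE 0.13, adjusted p 2.09e-12). SNHG15 had 9.63 and 10.7, against 19.9 and 25.9, and fell by 1.17 (SE 0.17, adjusted p 1.95e-06). SNHG8, the host of SNORA24, had 121 and 129, against 151 and 167 (log2 fold change −0.34, SE 0.11, adjusted p 0.0247), a call lost under TMM scaling and without either AZ-5576 library or the second DMSO library. SNHG1 had 265 and 283, against 264 and 315 with DMSO (−0.08, adjusted p 0.759), where the 302 genes of like share had a median of −0.95 and 19 lay above it. The AZ-5576 and actinomycin D comparisons share their DMSO libraries.

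The labelled share fell for all 10 hosts with each of these inhibitors, where 98.6% of the 7960 genes tested were lower and 0.0126% higher with actinomycin D, and 93.6% lower and 0.0503% higher with AZ-5576. With AZ-5576 the share was 4.05% ± 0.302 for SNHG1, against 26.5% ± 1.24 with DMSO, and 2.20% ± 0.932 for SNHG12, against 33.9% ± 2.84 (SD, n = 2 each). SNHG7 was at 4.25% ± 3.37 with AZ-5576, a spread nearly as wide as its mean, against 25.5% ± 1.32 with DMSO. On the log2 scale the SNHG7 share fell by 2.91 (SE 0.46), the least of the 10, and the SNHG5 share fell by 5.96 (SE 0.42), the most. The rank of SNHG7 rests on the second AZ-5576 library, since its value was −4.14 without it, beyond SNHG1 at −3.10 and SNHG6 at −3.47.

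Set directly against actinomycin D, AZ-5576 left more label and less total RNA in some hosts. All 10 hosts had more labelled RNA with AZ-5576 than with actinomycin D, against 20.5% of genes tested, and the log2 fold change ran from 1.18 (SNHG6, SE 0.34, adjusted p 0.00467) to 8.53 (SNHG1, SE 0.42, adjusted p 1e-88). This was not particular to them. Of protein-coding snoRNA hosts 44 of 50 were called higher, and of other noncoding hosts 8 of 13. The median log2 fold changes were 5.34 and 4.69, beside 4.84 over the 10 hosts and 2.35 over all genes. Under TMM scaling 5 hosts kept their call, where 431 of 7996 genes were called higher, and SNHG6 turned to −0.64. With only these 2 groups fitted 4 hosts passed the count filter, all of them called, as were 408 of the 418 genes tested. The values depend on counts near 0 with actinomycin D, and leaving out single libraries gave 7 to 10 calls, with SNHG5, SNHG6 and SNHG15 losing theirs. In total RNA 2 hosts were called lower with AZ-5576, where 0.371% of genes were called lower and 2.00% higher. SNHG12 had 19.1 and 18.9 with AZ-5576, against 27.1 and 31.2 with actinomycin D (−0.62, SE 0.12, adjusted p 0.000947). SNHG7 had 20.5 and 25.6, against 31.5 and 35.9 (−0.54, SE 0.14, adjusted p 0.0191). The SNHG12 call was lost without the second actinomycin D library (adjusted p 0.0604), and the SNHG7 call without either actinomycin D library or the first AZ-5576 library.

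**Figure D3:**
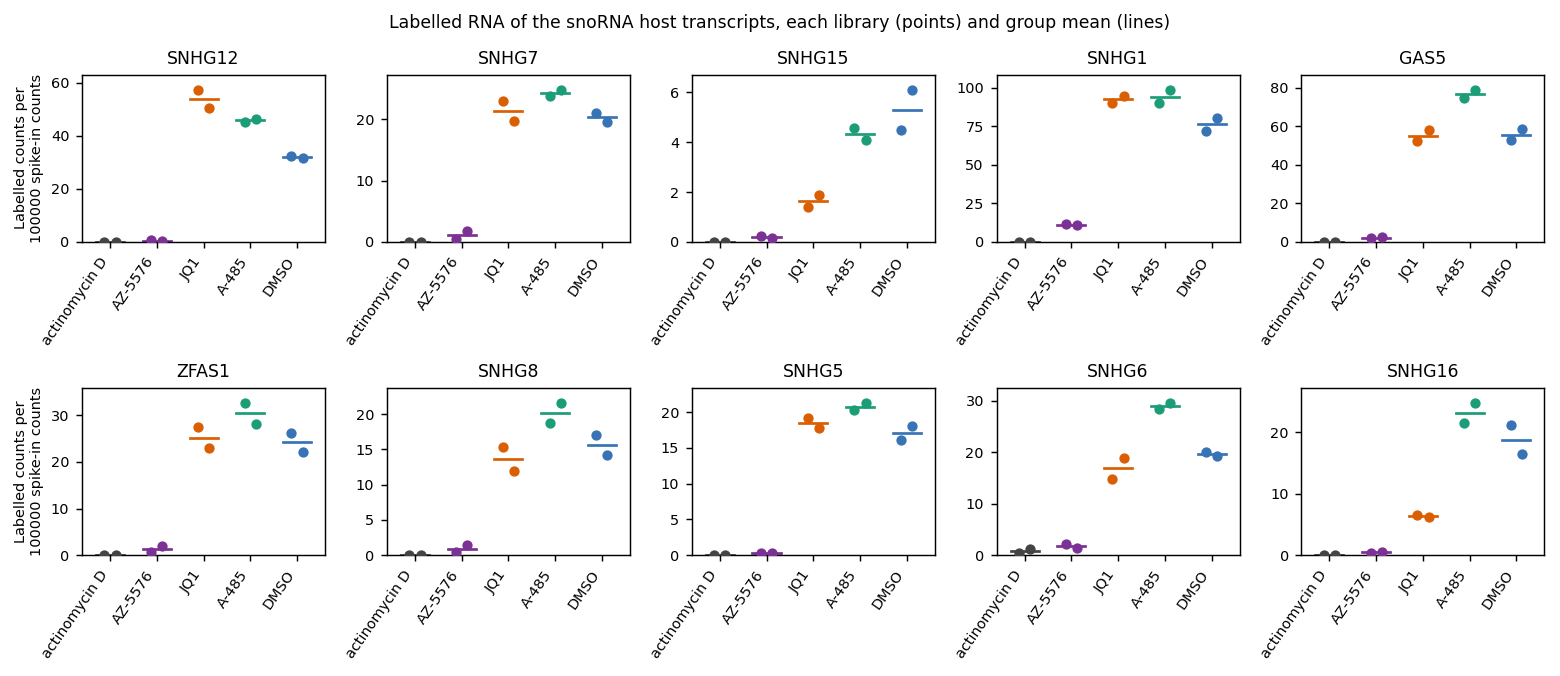
Labelled read counts per 100000 spike-in counts (y axis, from 0) of the 10 hosts in each library (points) with group means (lines), for actinomycin D, AZ-5576, JQ1, A-485 and DMSO from left to right. Actinomycin D and AZ-5576 lie near 0, with 11.3 and 10.9 for SNHG1 under AZ-5576, and with JQ1 SNHG12 lies above DMSO while SNHG15 and SNHG16 lie below it.

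JQ1 moved single hosts in opposite directions. The summed labelled RNA of the hosts was 305 ± 3.41, against 285 ± 2.24 with DMSO (SD, n = 2 each), and their part of all labelled reads was 1.98% with JQ1, against 1.20% with DMSO. In labelled RNA 2 hosts were called lower and 1 higher, against 28.6% and 1.26% of genes tested, with a median of 0.02 over the hosts and −0.85 over all genes. TMM scaling moved the median of all genes by 0.86, after which 1 host was called lower (SNHG16) and 8 higher, where 393 of 7996 genes were called lower and 482 higher. Relative to the other genes of the same library, then, GAS5 (0.85), SNHG8 (0.67) and SNHG6 (0.64) were higher with JQ1, although relative to the spike-in their values were −0.01, −0.19 and −0.22.

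SNHG12 rose in both fractions with JQ1. It had 57.4 and 50.4 labelled counts with JQ1, against 32.3 and 31.6 with DMSO, a log2 fold change of 0.76 (SE 0.16, adjusted p 8.53e-05). Its total RNA was 183 and 181 with JQ1, against 89.8 and 98.9 with DMSO, or 0.95 on the log2 scale (SE 0.11, adjusted p 5.75e-08). The groups did not overlap in either fraction, and 95.6% of genes had a lower change in labelled and 97.4% in total RNA. Its labelled share was 29.6% ± 2.50 with JQ1 and 33.9% ± 2.84 with DMSO (SD, n = 2 each), a difference that did not pass the test (adjusted p 0.597). SNHG1 rose in total RNA, with 389 and 428, against 264 and 315 (0.50, SE 0.11, adjusted p 0.00223), a call that rested on the first DMSO library (adjusted p 0.0783 without it). In labelled RNA SNHG1 had 90.2 and 94.9, against 72.2 and 80.8 (0.28, adjusted p 0.142).

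SNHG16 and SNHG15 fell in labelled RNA with JQ1. SNHG16, the host of the SNORD1 cluster, had 6.55 and 6.20 labelled counts with JQ1, against 21.1 and 16.5 with DMSO, and fell by 1.56 on the log2 scale (SE 0.21, adjusted p 6.1e-11). Its total RNA was 302 and 357, against 361 and 442 (−0.28, adjusted p 0.0978), which passed the test without the first DMSO library (adjusted p 0.0420) and without the second JQ1 library (adjusted p 0.0174). Its labelled share was 1.95% ± 0.307 with JQ1 and 4.79% ± 1.49 with DMSO (SD, n = 2 each), the only host share called lower (−1.31, SE 0.28, adjusted p 0.00052), where 15.4% of genes were called lower. That call was lost with DESeq2 (adjusted p 0.130) and without the first DMSO library (adjusted p 0.132). SNHG15 had 1.40 and 1.89 labelled counts with JQ1, against 4.48 and 6.11 with DMSO, and fell by 1.68 (SE 0.35, adjusted p 4.28e-05), with an adjusted p of 0.128 under TMM scaling. In total RNA SNHG15 had 13.5 and 14.3, against 19.9 and 25.9, and fell by 0.72 (SE 0.16, adjusted p 0.00345), which lost its call without the second DMSO library (adjusted p 0.176). In total RNA 2 hosts were thus called higher and 1 lower with JQ1, against 0.837% and 7.35% of genes tested, and the other 7 had log2 fold changes from −0.28 to 0.08.

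A-485 raised 1 host in both fractions by the test. The summed labelled RNA of the hosts was 369 ± 13.3, against 285 ± 2.24 with DMSO (SD, n = 2 each), or 130% of the DMSO level, and total RNA was 110% of it. In 9 of 10 hosts, all but SNHG15, both A-485 libraries lay above both DMSO libraries in labelled RNA, which was so for 18.4% of genes tested. By the test 1 host was called higher and 0 lower, against 0.163% and 4.86% of genes, with a median of 0.32 over the hosts and −0.09 over all genes. SNHG12 had 45.2 and 46.4 labelled counts with A-485, against 32.3 and 31.6 with DMSO (0.52, SE 0.16, adjusted p 0.0351), and this call was lost without the count filter (adjusted p 0.147) and without any 1 of the 4 libraries, with an adjusted p from 0.236 to 0.424. GAS5 had 74.6 and 78.9, against 52.7 and 58.4 (0.47, SE 0.15, adjusted p 0.0512), and SNHG6 28.4 and 29.5, against 20.1 and 19.2 (0.56, SE 0.19, adjusted p 0.0551), both just outside the threshold.

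In total RNA with A-485 SNHG12 had 140 and 133, against 89.8 and 98.9 with DMSO, and rose by 0.53 on the log2 scale (SE 0.11, adjusted p 0.00186), where 0.0343% of genes were called higher and 1.20% lower. The call was lost without the first A-485 library (adjusted p 0.0925) and without the first DMSO library (adjusted p 0.0750), with the direction kept. The other 9 hosts had log2 fold changes from −0.17 (SNHG15) to 0.29 (SNHG1) and none passed the test. No host share was called different with A-485 by edgeR or DESeq2, where 2.64% of genes were called lower and 0.0251% higher, and SNHG6 alone had an unadjusted p under 0.05 (p 0.045).

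**Figure D4:**
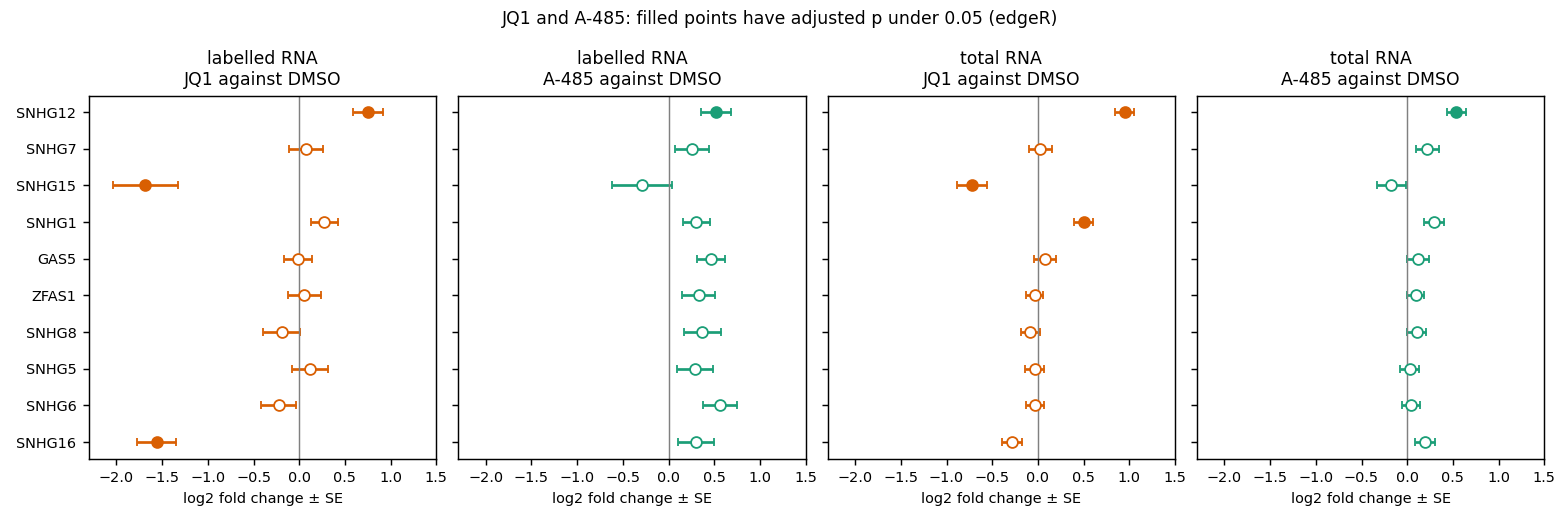
Log2 fold changes (x axis) of the 10 hosts (y axis) in labelled and total RNA for JQ1 and A-485 against DMSO, with bars for the standard error of the edgeR fit. Filled points have an adjusted p under 0.05, as SNHG12 has in all 4 panels, and SNHG15 lies below 0 in each.

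The direct comparison of A-485 with JQ1 separated SNHG16 and SNHG12. In labelled RNA 5 hosts were called higher with A-485 and 0 lower, against 24.8% and 3.14% of genes tested. SNHG16 had 21.6 and 24.7 labelled counts with A-485, against 6.55 and 6.20 with JQ1 (1.86, SE 0.21, adjusted p 1.47e-15), and SNHG15 had 4.57 and 4.08, against 1.40 and 1.89 (1.39, SE 0.36, adjusted p 0.00107). SNHG6 (0.78, adjusted p 0.000434), SNHG8 (0.56, adjusted p 0.0232) and GAS5 (0.48, adjusted p 0.0116) completed the 5. The last 2 lost their calls without single libraries, and under TMM scaling only SNHG16 kept its call as higher, while SNHG8 (−0.07) and GAS5 (−0.16) changed sign. In total RNA 2 hosts were called higher and 1 lower, against 5.38% and 1.20% of genes. SNHG16 had 443 and 478 with A-485, against 302 and 357 with JQ1 (0.48, SE 0.11, adjusted p 0.00358), and SNHG15 19.0 and 21.6, against 13.5 and 14.3 (0.54, SE 0.16, adjusted p 0.0352). SNHG12 had 140 and 133 with A-485, against 183 and 181 with JQ1 (−0.41, SE 0.10, adjusted p 0.00918). The SNHG12 call was lost without either A-485 library, the SNHG16 call without the second, and the SNHG15 call without any 1 of the 4 libraries.

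JQ1 against AZ-5576 gave the largest change of a host in total RNA among the comparisons made, that of SNHG12. All 10 hosts had more labelled RNA with JQ1, as did 84.9% of genes tested, while 0.388% had less. Under TMM scaling SNHG1 (0.35, adjusted p 0.0644), SNHG6 (0.53, adjusted p 0.0742) and SNHG15 (0.48, adjusted p 0.559) lost these calls. In total RNA 3 were called higher and 0 lower, against 4.16% and 0.707% of genes. SNHG12 had 183 and 181 with JQ1, against 19.1 and 18.9 with AZ-5576, a log2 fold change of 3.26 (SE 0.12, adjusted p 1.32e-22). SNHG7 had 93.8 and 68.4, against 20.5 and 25.6 (1.81, SE 0.13, adjusted p 1.57e-12), and SNHG1 had 389 and 428, against 265 and 283 (0.58, SE 0.11, adjusted p 0.000358).

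The remaining noncoding hosts were counted for reference. Of 18 found in the tables, 15 passed the filter in total RNA, and 8 were called lower and 1 higher with actinomycin D, 10 lower with AZ-5576, and 3 lower and 1 higher with JQ1, where 19.7%, 12.9% and 7.35% of all genes were called lower and 0.336%, 0.782% and 0.837% higher in that order. SNHG3 fell by 0.68 with actinomycin D (adjusted p 2.45e-06) and by 0.56 with AZ-5576 (adjusted p 6.47e-05), and DANCR, a host of SNORA26, fell by 0.58 and 0.56 (adjusted p 7.93e-05 and 0.000127). With JQ1 SNHG19 rose by 0.60 (adjusted p 0.000612) and SNHG20 fell by 1.89 (adjusted p 1.39e-05), so both directions occurred there too. In labelled RNA with JQ1, 6 of 13 fell and 1, SNHG19, rose (0.50, adjusted p 0.0196), where 28.6% of all genes fell and 1.26% rose. With A-485 SNHG25 was the only 1 of 13 called in labelled RNA, at 0.63 (adjusted p 0.00329), where 0.163% of all genes were called higher and 4.86% lower.

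Protein-coding snoRNA hosts, most of which encode ribosomal proteins or translation factors, were called lower in total RNA in 12 of 52 with actinomycin D, 10 with AZ-5576 and 5 with JQ1, where the share over all genes was 19.7%, 12.9% and 7.35%. TAF1D, a subunit of the factor that selects RNA polymerase I promoters, fell by 1.51 with actinomycin D (adjusted p 6.87e-14) and by 1.56 with AZ-5576 (adjusted p 4.33e-14). In labelled RNA with JQ1, 17 of 50 fell and 1 rose, a share of 34.0% lower beside 28.6% over all genes, with RPL30 at −1.58 (adjusted p 1.48e-12) and RPL32 at −1.02 (adjusted p 1.54e-07). Of the 8 core proteins of snoRNPs, 6 fell in labelled RNA with JQ1, against the same 28.6%, among them DKC1, the pseudouridine synthase, at −1.85 (adjusted p 6.37e-07) and FBL, the methyltransferase fibrillarin, at −0.85 (adjusted p 0.0108). Of the 15 nonsense-mediated decay factors, 3 fell in total RNA with actinomycin D, 2 with AZ-5576 and 1 with JQ1. These are 20.0%, 13.3% and 6.67% of the list, near the 19.7%, 12.9% and 7.35% over all genes, so the counts say nothing particular of these factors. UPF2, a core factor of that pathway, fell by 0.62 with actinomycin D (adjusted p 2.07e-05), by 0.54 with AZ-5576 (adjusted p 0.000162) and by 0.66 with JQ1 (adjusted p 2.93e-05).

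Little of the snoRNA sequence itself was seen, since the kit captures poly(A) ends. GENCODE release 29 places 26 snoRNA entries inside the hosts on the same strand, with 0 inside GAS5. Of these entries 11 are rows of the tables and 3 reached 10 counts in a library. Some entries overlap, as those of SNORA17B and of SNORA16A do, so 26 is not a number of separate snoRNAs. SNORD99, inside SNHG12, had 4 and 3 total counts in the actinomycin D libraries, 4 and 2 under AZ-5576, 43 and 35 under JQ1, 26 and 14 under A-485, and 29 and 23 in DMSO. It fell with actinomycin D (−3.02, SE 0.69, adjusted p 0.00144) and AZ-5576 (−3.12, SE 0.71, adjusted p 0.00159), as SNHG12 did. SNORA61, in another intron of SNHG12, had 32 and 31 counts in the actinomycin D libraries, 29 and 25 under AZ-5576, 40 and 28 under JQ1, 17 and 20 under A-485, and 14 and 7 in DMSO, and it was called in no comparison with DMSO (lowest adjusted p 0.0525, actinomycin D). Both were named after their values were seen, and reads in an intron cannot be told apart from unspliced host RNA.

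Positions of the hosts in hg38, from GENCODE release 29, bear on what was counted. All 10 are annotated noncoding genes: SNHG12 at chr1:28578538-28583132 on the minus strand, SNHG7 at chr9:136721366-136728184 (minus), SNHG15 at chr7:44983023-44986961 (minus), SNHG1 at chr11:62851988-62855914 (minus), GAS5 at chr1:173863900-173868882 (minus), ZFAS1 at chr20:49278178-49295738 (plus), SNHG8 at chr4:118278709-118279823 (plus), SNHG5 at chr6:85660950-85678748 (minus), SNHG6 at chr8:66921684-66926398 (minus) and SNHG16 at chr17:76557766-76565348 (plus). Genes on the other strand overlap some of them, and whether reads were counted by strand is not given in the sources used here. The largest such neighbours were TRNAU1AP beside SNHG12, with 429 to 582 total counts per library, ZNFX1 beside ZFAS1, with 149 to 474, and FAM69B beside SNHG7, with 152 to 235. TRNAU1AP ends at chr1:28578545, so it meets only the outermost bases of SNHG12. Those bases are the annotated 3′ end of both genes, and the kit reads near such ends. On the same strand, the small RNA entries RF02217 and RF02216 lie inside ZFAS1, with 351 to 623 and 36 to 88 total counts. SNHG12 itself ranged from 350 to 4052 total counts. It had 350 and 390 with AZ-5576 and 546 and 680 with actinomycin D, which is near the range of TRNAU1AP. The part of these neighbours in the host counts was not tested.

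Over the 10 libraries, the mean log2 profile of the hosts in total RNA was most like that of SIRT1 (Pearson r 0.980), EXOC8 (0.979), ZNF574 (0.979), C19orf48P (0.976) and MIR17HG (0.976) among 8822 genes with at least 100 counts on average. These correlations are a description over libraries that share the 5 treatments.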

How the data were processed

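The authors deposited 3 tables of raw read counts for these K562 SLAM-seq libraries: per the file headers, reads per gene for human RNA, for human reads with T-to-C conversions, and for Drosophila RNA. Every count column held whole numbers with no normalisation. Per the labels' protocols, RNA was alkylated with iodoacetamide before S2 spike-in RNA was added, and libraries came from a QuantSeq 3′ kit. The submitters' processing notes name Trim Galore 0.6.5, bcl2fastq 2.17.1.14 and bedtools, and the builds hg38 and dm6. Which aligner and conversion caller were used is not given in the sources used here.

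Groups came from the labels, with 2 libraries each. GENCODE release 29 gave symbols and positions for 55838 of the 59204 human identifiers, and RefSeq (GRCh38.p14) gave promoter windows for 8 of the 10 genes. Differences were tested two-sided with edgeR 4.0.16 (R 4.3.3), by its robust quasi-likelihood fit over all 10 libraries, with library sizes set to the spike-in totals. A gene entered with 10 or more counts in 2 or more libraries, and the threshold was an adjusted p of 0.05. Labelled RNA had 7996 such genes, total RNA 14572 and the labelled share 7960, and each fit had 5 residual degrees of freedom. For the share, the labelled reads of a library were modelled jointly with its unlabelled reads. The common biological coefficient of variation was 24.8%, 10.9% and 17.8%. Ratios of labelled counts have exact 95% intervals, which cover counting error only. Replicates of every group differed by more than sampling noise, with a chi-square per degree of freedom from 3.95 to 11.5.

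Alternatives were TMM scaling, spike-in median ratio scaling, DESeq2 1.42.0, no filter, only the groups compared, a replicate block and leaving out each library. The 10 genes, the lists and the motifs were chosen with earlier results of these data known. The text names all 10 genes, up to 4 called genes of each other list by DMSO counts, and the 5 genes most like the hosts. SNHG4 and SNHG21 had no identifier, and NOP56, NOP58 and DKC1 stand in the lists of protein-coding hosts and of snoRNP proteins.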

Additional observations from a re-analysis of the deposited data

How the results depend on the processing

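Calls on SNHG12, SNHG7 and SNHG15 in total RNA with actinomycin D and AZ-5576, on SNHG12 with JQ1 in both fractions and on labelled SNHG16 with JQ1 kept their direction and side of the threshold under all alternatives run. TMM scaling, which centres each library on its own genes, left 97 of 140 host results in labelled and total RNA with the same direction and side of the threshold. Under TMM, labelled log2 fold changes changed sign to 0.75 for SNHG6 with actinomycin D, to 0.79 for SNHG1 and 0.12 for SNHG6 with AZ-5576, and to 0.64 for SNHG6, 0.67 for SNHG8 and 0.85 for GAS5 with JQ1. They changed sign to −0.64 for SNHG6 in AZ-5576 against actinomycin D, and to −0.61 for SNHG1, −0.070 for SNHG8 and −0.16 for GAS5 in A-485 against JQ1. TMM moved the median of all genes in labelled RNA by 1.07 and in total RNA by 0.25 with actinomycin D, by 2.89 and 0.15 with AZ-5576, by 0.86 and 0.20 with JQ1, and by 0.23 and 0.05 with A-485. Over all genes the labelled calls with JQ1 were 2286 lower and 101 higher by spike-in, and 393 lower and 482 higher by TMM. The total calls were 2874 lower and 49 higher by spike-in with actinomycin D and 1153 and 791 by TMM, 1878 and 114 with AZ-5576 and 1210 and 546 by TMM, and 1071 and 122 with JQ1 and 288 and 214 by TMM.

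Host calls in labelled RNA under TMM were 5 lower and 1 higher with AZ-5576, 1 lower and 8 higher with JQ1, 5 higher with A-485, 5 higher in AZ-5576 against actinomycin D, and 1 higher and 2 lower in A-485 against JQ1. In total RNA TMM gave 1 higher with actinomycin D, 0 lower with JQ1, 2 higher with A-485, 6 higher in JQ1 against AZ-5576, and 1 higher and 2 lower in A-485 against JQ1. Of all 14572 genes the same calls numbered 791, 288, 13 and 754, and 339 higher and 278 lower, in that order. DESeq2 gave 2 higher in labelled RNA with JQ1, 3 higher with A-485 and 0 lower shares with JQ1. Over all genes it gave 88 and 16 of 7996, and 298 of 7960 lower shares. Labelled RNA with A-485 had 3 calls under spike-in median ratio scaling, 3 with only the groups compared, 0 without the filter and 2 with the replicate block, and AZ-5576 against actinomycin D had 4 with only the groups compared. Over all genes the higher calls with A-485 were 16 of 7996, 57 of 7570, 3 of 17333 and 9 of 7996 in that order. AZ-5576 against actinomycin D had 408 of 418. Libraries with the same number are not shown to pair: their deviations correlated from −0.0864 to 0.319, over 0.1 in 7 of 10 pairs of groups. With the block 5 hosts were lower in total RNA with actinomycin D, GAS5 added (adjusted p 0.0115), and 6 with AZ-5576, GAS5 (adjusted p 0.0245) and ZFAS1 (adjusted p 0.0142) added. Lower calls over all 14572 genes rose too, from 2874 to 3648 with actinomycin D and from 1878 to 2253 with AZ-5576. The block also gave 2 lower hosts in total RNA with JQ1, 2 higher with A-485 and 5 higher in JQ1 against AZ-5576. Over all 14572 genes these calls numbered 1972, 13 and 758. Leaving out single libraries gave 0 to 0 calls in labelled RNA with A-485, 7 to 10 in AZ-5576 against actinomycin D and 3 to 4 in A-485 against JQ1. In total RNA it gave 3 to 5 lower with actinomycin D, 3 to 4 lower with AZ-5576, 1 to 2 higher and 0 to 2 lower with JQ1, 0 to 1 with A-485, 0 to 2 in AZ-5576 against actinomycin D, 3 to 4 in JQ1 against AZ-5576, and 0 to 2 higher and 0 to 1 lower in A-485 against JQ1, and for the share with JQ1 0 to 1. A group left with 1 library is assumed to vary like the others. The cause of these changes was not tested. Labelled counts of 0 to 2 with actinomycin D limit what can be said of single hosts there.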
